A study of Homo sapiens with 4 samples.

Results

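Respiratory complex I, the NADH dehydrogenase of the mitochondrial inner membrane, was followed through 36 of the nuclear genes that code for its subunits. Each gene was taken as the row of the deposited count table whose symbol equals that of the subunit, which gave 36 of 56657 rows. RNA had been sequenced from TE5, an established line of esophageal squamous cell carcinoma, on day 7 after selection. The shControl group (n = 2 libraries, genotype labelled WT) carried a control short hairpin RNA. The shNUP153 group (n = 2, labelled NUP153 knockdown) carried hairpin RNA against NUP153, a nucleoporin of the nuclear basket. Both groups therefore share lentiviral infection and puromycin selection. Nothing in the labels ties the 2 replicates of a group to separate cultures. The tests below therefore set group differences against the spread between these particular libraries, and that spread may be technical. The library descriptions end in g1 and g2 for shNUP153, and it is not known here if these are different hairpins.

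Complex I takes electrons from NADH, passes them along a chain of iron-sulfur clusters to ubiquinone, and pumps protons across the inner membrane. Its matrix arm holds the NADH site and the clusters, and its membrane arm holds the proton pumps. Core subunits do the catalysis and are conserved from bacteria, accessory subunits surround them, and the core of the membrane arm is encoded by mitochondrial DNA, so that the complex is built from the products of both genomes. Levels below are CPM, the counts of a gene relative to library size after TMM scaling (a correction that assumes most genes do not differ), and changes are log2 fold changes of shNUP153 over shControl.

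The libraries held between 22606593 and 27396268 counts. NUP153 measured 148.9 and 141.6 CPM in shControl and 67.9 and 81.9 CPM in shNUP153, so transcript remained in both knockdown libraries. TP63, a squamous lineage factor, stood at 231 to 250.2 CPM in the 4 libraries. Of 9 markers of immune, endothelial and stromal cells, DCN and LUM were at 0 counts in all libraries, 5 others had at most 12 counts in a library, and the summed level of the list was 5.63 and 8.14 CPM in shControl and 6.86 and 6.28 in shNUP153. The remaining markers passed the test, VWF higher (0.76) and ACTA2 lower (−0.46), and of 7 tested squamous markers KRT17 was higher (0.76) and KRT5 (−0.68), SOX2 (−0.34) and KRT6A (−0.23) were lower. KRT14, also on the squamous list, had 6 to 13 counts in a library and was not tested. The summed level of the squamous list was 1323 and 1288 CPM in shControl and 1763 and 1766 CPM in shNUP153, a ratio of 1.35. That rise came from KRT17, at 745 and 724 CPM in shControl and 1252 and 1238 CPM in shNUP153. Of the 7 tested squamous markers, 6 had a log2 fold change below 0. The part of these markers in the results below was not tested, and in bulk RNA fewer cells of a type and less RNA per cell cannot be told apart. Mitochondrially encoded genes took 5.31% and 5.60% of counts in shControl and 5.77% and 6.59% in shNUP153.

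With NUP153 reduced, 7 of the 36 complex I genes fell, 0 rose and 29 did not pass the test. The falls were small, from 1.11-fold to 1.32-fold. They included NDUFV1 and NDUFS1, core subunits of the NADH-oxidizing end, and NDUFAB1, the mitochondrial acyl carrier protein, and took in accessory subunits of both arms (NDUFA5, NDUFA1, NDUFB3 and NDUFA10). All 36 genes passed the filter on low counts and were tested among 16817. Of all tested genes, 17.4% were lower and 15% higher by the same rule (edgeR quasi-likelihood test, adjusted p under 0.05), against 19.4% of the complex I genes lower. The share that fell is thus close to the background, whereas no gene rose by this test. At an unadjusted p under 0.05 there was 1 higher complex I gene, NDUFB11, and 8 lower. The count of lower genes was 7 with limma-voom, 6 with DESeq2 and 0 with limma without a variance trend, which calls only 273 genes lower in all and has 6 of the members lower at an unadjusted p under 0.05. It was 4 without shNUP153 replicate 2. The count of higher genes was 0 with DESeq2 and both limma fits, 2 without shControl replicate 2 or with total-count scaling, and 1 with upper-quartile scaling or with a mean of 5 CPM or more.

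The median log2 fold change of the 36 genes was −0.07, beside 0.0054 for all tested genes, and 25 of 36 lay below 0, against 49.3% of all tested genes. Total-count scaling moved the members' median to −0.0079 and that of all tested genes to 0.07. That scaling also turned the split of calls over all genes from 46.3% higher to 62.8% higher. In 15 of the 36 genes both shNUP153 libraries lay under both shControl libraries (41.7%), and in 3 they lay above (8.33%), where all tested genes gave 32.2% in each direction. Summed over the 36 genes, the level was 2138 and 2228 CPM in shControl and 2027 and 2045 CPM in shNUP153, a ratio of 0.933. Both sums of shNUP153 lay under both of shControl. This sum weighs genes by their level, and called genes are among the highest. NDUFV1 alone went from a mean of 234 to 195 CPM, while 11 of the 36 genes had a log2 fold change above 0. Without TMM scaling, the 36 genes took 0.210% and 0.217% of counts in shControl and 0.208% and 0.207% in shNUP153.

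**Figure D1:**
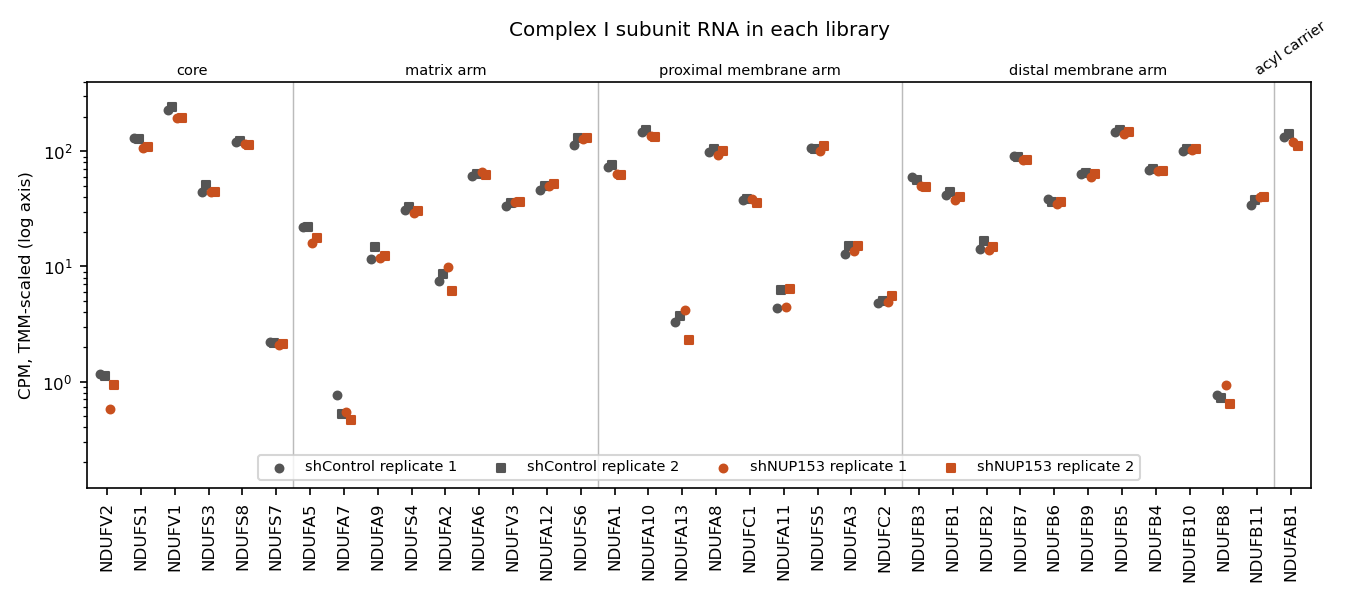
Level of each of the 36 nuclear complex I genes in each library, as TMM-scaled CPM on a log axis, with genes grouped by place in the complex and ordered by log2 fold change within each group. Grey points are the shControl libraries and orange points the shNUP153 libraries. NDUFV1 is the highest gene in CPM (195 to 241), and the groups lie close together for most genes.

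Of the 6 core subunit genes, 2 fell, 0 rose and all 6 had a log2 fold change below 0, with a median of −0.18. NDUFV1 (ENSG00000167792, chromosome 11) codes for the subunit that binds the flavin and NADH. It measured 228 and 241 CPM in shControl and 196 and 195 CPM in shNUP153. Both knockdown libraries were lower than both controls, and the level fell by 16.8% (log2 fold change −0.27, SE 0.05, edgeR adjusted p = 3.27e-05). NDUFS1 (ENSG00000023228, chromosome 2), the large iron-sulfur subunit next to it, measured 131 and 129 CPM in shControl and 106 and 109 CPM in shNUP153. The groups did not overlap for it either, and the fall was 1.21-fold (−0.27, SE 0.05, adjusted p = 7.44e-05). NDUFS3 and NDUFS8, core subunits of the part that hands electrons to ubiquinone, did not pass. NDUFS3 measured 44.2 and 50.8 CPM in shControl and 44.7 and 44.04 in shNUP153, so its groups overlapped (−0.10, adjusted p = 0.285). NDUFS8 measured 120 and 123 CPM against 117 and 113 (−0.08, adjusted p = 0.280). The call of NDUFS3 depended on shControl replicate 1, without which it was lower (−0.20, adjusted p = 0.0261). The remaining core genes were measured thinly, NDUFV2 from 15 to 30 counts in a library (−0.62, SE 0.37) and NDUFS7 from 49 to 58 (−0.07, SE 0.24). A pseudogene row of NDUFV2, given below, held more counts than the gene. Summed over the core, the level was 526 and 547 CPM in shControl and 466 and 464 CPM in shNUP153.

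Among the 9 accessory subunits of the matrix arm, 1 fell and 0 rose, and the median was 0.0025. NDUFA5 (ENSG00000128609, chromosome 7), a small subunit bound near the ubiquinone-reducing part, had the largest fall of the 7 called genes. It stood at 22.04 and 22.1 CPM in shControl and 15.8 and 17.5 CPM in shNUP153, 1.32-fold lower (−0.40, SE 0.09, edgeR adjusted p = 0.00067). The control libraries lay together and both knockdown libraries under them. Without shNUP153 replicate 1 its adjusted p was 0.0511. On the other side of 0 stood NDUFS6, which carries a zinc site of the matrix arm, at 113 and 131 CPM in shControl and 128 and 131 in shNUP153 (0.09, adjusted p = 0.263). Its spread lay within shControl, where replicate 1 was the low library, and without shControl replicate 2 it was called higher (0.19, adjusted p = 0.00457), as it was with total-count scaling (0.15, adjusted p = 0.0303). NDUFA12 (0.08) and NDUFV3 (0.07) were higher in both knockdown libraries than in both controls and did not pass the test. NDUFA6, one of the LYR-motif subunits that dock the acyl carrier protein, was at 0.04, NDUFS4 at −0.11 and NDUFA7, with 11 to 17 counts in a library, at −0.34 (SE 0.45). NDUFA9, a subunit of the joint between the arms, was at −0.15 (adjusted p = 0.347) and at −0.31 without shControl replicate 1 (adjusted p = 0.0389). NDUFA2 had a log2 fold change of 0.0025 and scattered from 6.15 to 9.95 CPM, with both extremes in shNUP153. Summed, the matrix arm accessory genes were at 327 and 358 CPM in shControl and 347 and 348 CPM in shNUP153, and here the groups overlapped.

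Of the 9 accessory subunits of the proximal membrane arm, which lie around the part of the membrane arm next to the matrix arm, 2 fell and 0 rose (median −0.05). NDUFA1 (ENSG00000125356, chromosome X), a small membrane subunit, measured 73.03 and 76.4 CPM in shControl and 63.2 and 61.7 CPM in shNUP153. The groups were apart and the level fell by 16.5% (−0.26, SE 0.06, edgeR adjusted p = 0.000685). In the GENCODE v29 annotation, 44.5% of its exon bases are shared with RNF113A on the opposite strand, and the strand setting of the counting is not known here, so reads of this pair may not be separable. RNF113A itself was at 0.19 (adjusted p = 0.130), the other direction. NDUFA10 (ENSG00000130414, chromosome 2) measured 148 and 153 CPM in shControl and 137 and 134 CPM in shNUP153, 1.11-fold lower (−0.15, SE 0.05, adjusted p = 0.0185). This is the smallest of the 7 falls. It missed the threshold under 8 of 14 alternatives (adjusted p = 0.0509 to 0.205), among them leaving out shControl replicate 2, shNUP153 replicate 1 or shNUP153 replicate 2. NDUFA8, an intermembrane-space subunit, at 99.4 and 104 CPM against 93.7 and 99.96, and NDUFS5, at 107 and 105 CPM against 101 and 111, did not pass (−0.07 and 0.00091, SE 0.05 each). NDUFC1 was at −0.05, NDUFA3 at 0.03, NDUFA13 at −0.10, NDUFC2 at 0.09 and NDUFA11 at −0.000345.

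The distal membrane arm, around the outer proton pumps, gave 1 fall and 0 rises among 11 genes (median −0.06). NDUFB3 (ENSG00000119013, chromosome 2) stood at 59.95 and 56.8 CPM in shControl and 49.9 and 48.8 CPM in shNUP153. Its groups did not overlap, and it fell 1.18-fold (−0.24, SE 0.06, edgeR adjusted p = 0.00311), with an adjusted p of 0.0763 without shNUP153 replicate 2. It shares 19.8% of its exon bases with FAM126B on the opposite strand. NDUFB11 had the highest log2 fold change of all 36 genes, at 34.4 and 37.6 CPM in shControl and 39.8 and 40.2 CPM in shNUP153 (0.15, SE 0.07, adjusted p = 0.109). It was called higher with total-count scaling, upper-quartile scaling, a mean of 5 CPM or more, and without shControl replicate 2 (adjusted p = 0.0187 to 0.0427). NDUFB11 shares 44.9% of its exon bases with RBM10 on the opposite strand, and RBM10 fell (−0.22, adjusted p = 0.00461). NDUFB1 was at −0.14 (adjusted p = 0.118, and 0.0395 without shControl replicate 1). NDUFB7, at 90.9 and 89.5 CPM against 84.7 and 84.5, and NDUFB5, at 146 and 152 CPM against 141 and 146, were lower in both knockdown libraries than in both controls and did not pass (−0.09 and −0.06). NDUFB2 was at −0.11, NDUFB6 at −0.07, NDUFB9 at −0.06, NDUFB4 at −0.04, NDUFB10 at 0.01 and NDUFB8 at 0.09 (SE 0.40).

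NDUFAB1 (ENSG00000004779, chromosome 16) codes for the mitochondrial acyl carrier protein, which sits in both arms of complex I and also serves fatty acid and lipoic acid synthesis and iron-sulfur cluster assembly. It measured 134 and 141 CPM in shControl and 120 and 112 CPM in shNUP153, with no overlap. The fall was 1.19-fold (−0.25, SE 0.05, edgeR adjusted p = 0.000337). Without shNUP153 replicate 2, the lower of the knockdown libraries, its adjusted p was 0.0605. Each of the 7 calls was lost with limma without a variance trend (adjusted p = 0.0749 to 0.198).

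**Figure D2:**
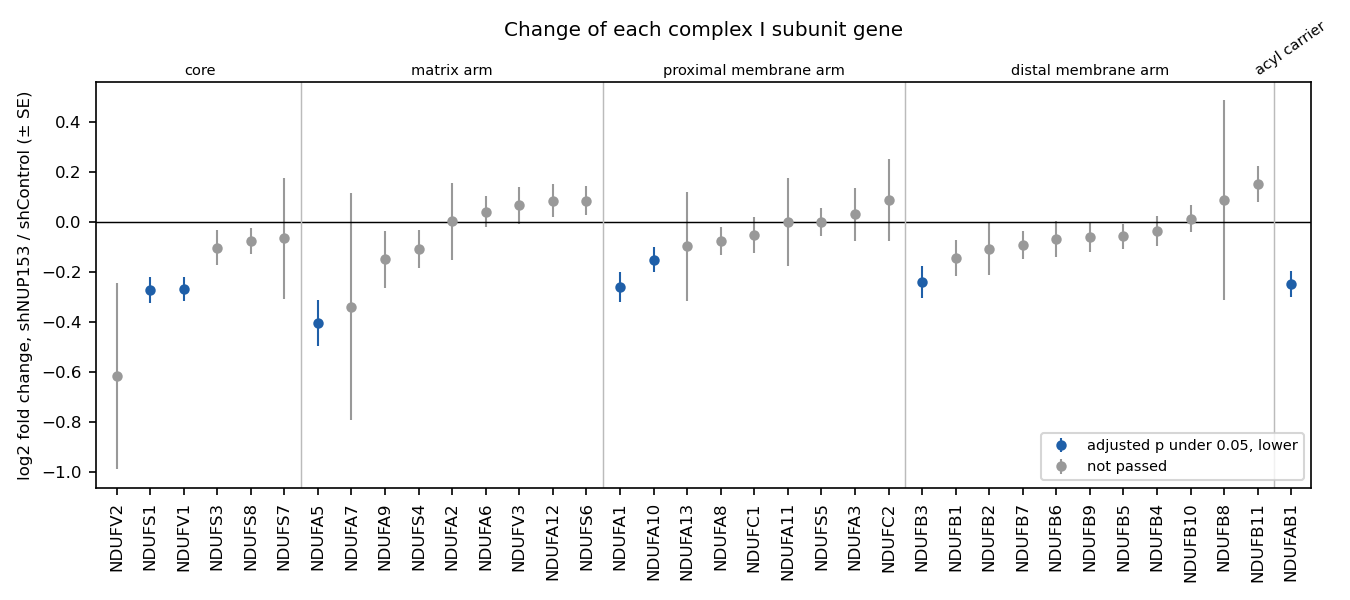
Log2 fold change (shNUP153 over shControl) of each complex I gene with its standard error from the edgeR fit, grouped by place in the complex. Blue points passed an adjusted p under 0.05 and grey points did not. The 7 blue points lie between −0.40 and −0.15, and the widest bars belong to genes with few counts, such as NDUFA7 and NDUFB8.

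How firmly the 29 other genes were measured varied. For the 10 with a mean of 50 CPM or more, the log2 fold changes ran from −0.09 to 0.09 with standard errors of 0.05 to 0.06, and 6 lay below 0. For the 19 under 50 CPM they ran from −0.62 to 0.15 with standard errors of 0.07 to 0.45. At a mean of 50 CPM or more, 5 of 16 complex I genes were called lower (31.2%), beside 25.9% of 4591 genes tested there, and 0 were called higher, beside 26.3%. At a mean of 5 CPM or more, 7 of 31 were called lower (22.6%), beside 22.6% of 11029 genes, and 1 higher, NDUFB11, beside 21.7%. In the authors' deposited table the log2 ratio, which carries no correction for library size, was −0.24 for NDUFV1, −0.25 for NDUFS1, −0.38 for NDUFA5 and 0.17 for NDUFB11.

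The level per kilobase of exon differed widely between the genes. In shControl it ran from 0.291 CPM per kb for NDUFS7 to 193 CPM per kb for NDUFS5, with exons taken from all GENCODE v29 transcripts of a gene. The 8 lowest genes were NDUFS7, NDUFB8, NDUFV2, NDUFA7, NDUFA11, NDUFA9, NDUFA13 and NDUFC2, at 0.291 to 1.85 CPM per kb. All 8 share exon bases with another annotated gene (10.6% to 49.1% of them), and 7 of them do so on their own strand. Among the other 28 genes, at 2.24 to 193 CPM per kb, 14 share none and 6 share any on their own strand. Several partners on the same strand were themselves at 0 counts in all libraries. NDUFB8, an accessory subunit of the membrane arm, shares 33.8% of its exon bases with AL133352.1, which had 0 counts, and had 17, 19, 24 and 15 counts of its own in the 4 libraries. NDUFA7 shares 32.3% with AC010323.1, again at 0 counts, and had 17, 14, 14 and 11. NDUFC2 shares 16.3% with the NDUFC2-KCTD14 readthrough gene, which was at 0 counts as well. NDUFV2, the core subunit that holds an iron-sulfur cluster beside the flavin, had 93 counts over the 4 libraries, while the row of its pseudogene NDUFV2P1 had 338. The way the authors counted reads that match more than 1 gene is not known here, and its part in these levels was not tested. Levels and changes of these 8 genes are uncertain in this respect. Of the 36 genes, 17 have pseudogene rows in the table (54 rows). Apart from NDUFV2 and NDUFB8 (17.3%), these held at most 2.8% as many counts as the gene, the highest being NDUFB4.

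**Figure D3:**
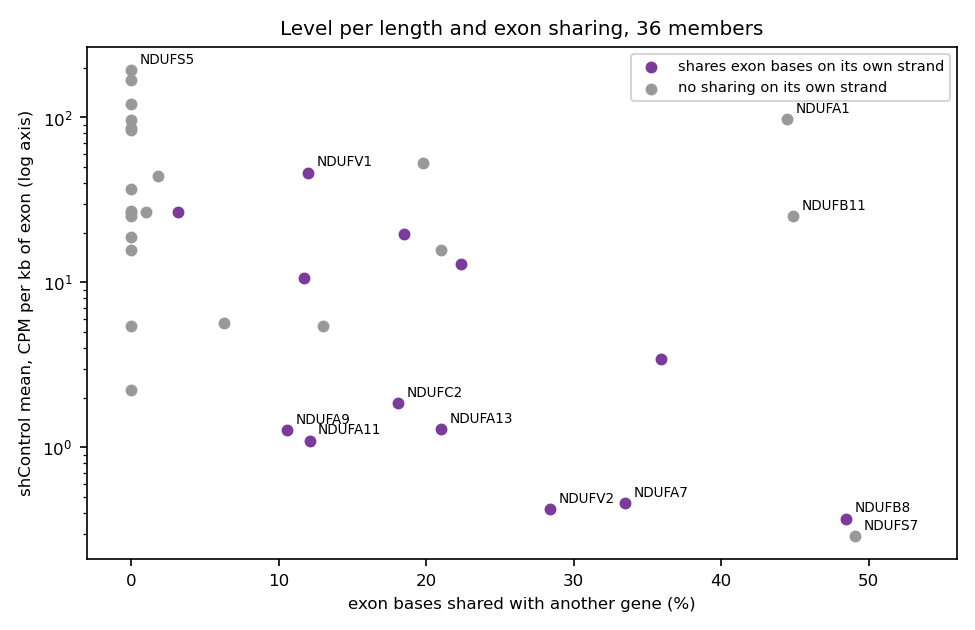
Mean shControl level per kilobase of exon (log axis) against the percent of a gene's exon bases shared with any other GENCODE v29 gene, for the 36 complex I genes. Purple points share bases on their own strand. The 8 named points at the bottom, up to 1.85 CPM per kb, all share bases, while NDUFA1 and NDUFB11 share over 44% on the opposite strand at 97.5 and 25.4 CPM per kb.

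The 7 complex I subunits of mitochondrial DNA, which form the core of the membrane arm, had 5 higher and 0 lower (median 0.18). The share called higher was 71.4%, beside 15% of all tested genes and 26.3% of genes with a mean of 50 CPM or more. The 208 pseudogene rows of these subunits held 781 counts, beside 1811900 for the 7 genes. MT-ND1, at the ubiquinone end of the membrane arm, measured 1858 and 1948 CPM in shControl and 2113 and 2402 CPM in shNUP153 (0.25, SE 0.05, edgeR adjusted p = 5.54e-05). MT-ND4, an outer proton pump, measured 6542 and 6918 CPM in shControl and 7325 and 8617 CPM in shNUP153 (0.24, SE 0.05, adjusted p = 0.000101). In both genes the groups were apart, and shNUP153 replicate 2 was the highest library. MT-ND3 (0.18) and MT-ND4L (0.11) were also called higher with no overlap. MT-ND6 was called (0.26, adjusted p = 0.00773), although its groups overlapped, at 646 and 747 CPM in shControl and 696 and 971 CPM in shNUP153. MT-ND5 (0.11) and MT-ND2 (−0.06) did not pass. These calls leaned on shNUP153 replicate 2, which also had the highest share of mitochondrially encoded counts (6.59%). Without it, 2 genes were higher, 1, MT-ND2, was lower, and MT-ND6 was at −0.00374. DESeq2 called 2 higher, and limma without a variance trend called 0 and had 0 higher at an unadjusted p under 0.05. The part of that share, which can move with RNA quality, in this result was not tested. The other 6 protein genes of mitochondrial DNA split, with MT-CYB (0.28) and MT-CO1 (0.16) called higher and MT-CO3 (−0.22) lower. The groups of MT-CO1 overlapped, at 15482 and 16781 CPM in shControl and 16508 and 19553 CPM in shNUP153, where replicate 2 was the highest library.

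Beside 17.4% lower and 15% higher over all tested genes, genes that assemble complex I gave 5 lower (27.8%) and 0 higher of 18 (median −0.13). The lower genes numbered 2 without shNUP153 replicate 2, 1 at a mean of 50 CPM or more and 0 with limma without a variance trend. The higher genes numbered 2 with total-count scaling, and 1 with upper-quartile scaling, at a mean of 5 or 50 CPM or more, and without shControl replicate 1. ACAD9, which works with the early membrane-arm assembly complex, stood at 64.9 and 62.8 CPM in shControl and 45.1 and 47.9 CPM in shNUP153 (−0.46, SE 0.06, edgeR adjusted p = 4.62e-07). Its groups did not overlap. DMAC1 (−0.37), NUBPL, which delivers iron-sulfur clusters to the complex (−0.30), FOXRED1 (−0.28) and TIMMDC1 (−0.16) fell as well. DMAC1, NUBPL and FOXRED1 had a mean under 50 CPM over the 4 libraries, so the 50 CPM filter left them untested. The NDUFAF genes, NDUFAF1 to NDUFAF8, did not pass, from 0.18 for NDUFAF1 to −0.19 for NDUFAF4. Of 13 tested genes for making iron-sulfur clusters, 4 fell (30.8%) and 1 rose (7.69%). FDXR (−0.31), BOLA3 (−0.31), NFS1, the cysteine desulfurase (−0.24), and HSPA9, a mitochondrial chaperone (−0.16), fell, and ISCU, the scaffold protein, rose (0.16). ISCU was not called with DESeq2, with no filter on low counts or with limma without a variance trend. The lower iron-sulfur cluster genes numbered 2 with total-count scaling, 1 at a mean of 50 CPM or more and 0 with limma without a variance trend. FDXR, BOLA3 and NFS1 of the iron-sulfur cluster list lay under 50 CPM, so the 50 CPM filter left them untested. In that list the lower genes numbered 1 if shNUP153 replicate 2 was left out, and 2 if shNUP153 replicate 1 was, and ISCU was no longer called without either of them or without shControl replicate 2.

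Of 39 nuclear genes for subunits of the other respiratory complexes, 23 fell (59%) and 1 rose (2.56%), with a median of −0.17. Over all tested genes 17.4% were lower and 15% higher. Among genes with a mean of 50 CPM or more these shares were 25.9% and 26.3%. By complex, 3 of 4 fell in complex II, 6 of 9 in complex III, 6 of 11 in complex IV and 8 of 15 in complex V. Whether complex I genes differ from these in their share of falls was not tested. ATP5F1A, the alpha subunit of ATP synthase, went from 355 and 349 CPM to 255 and 261 CPM (−0.45, edgeR adjusted p = 5.9e-10), and COX5B, a subunit of cytochrome c oxidase, from 116 and 119 CPM to 81.7 and 81.1 CPM (−0.53). In complex III, the core subunit gene UQCRC2 fell by 0.35, and in complex II the flavoprotein gene SDHA by 0.23. ATP5PD was called higher (0.16, adjusted p = 0.0441), and the count of higher genes over complexes II to V was 0 with DESeq2, with no filter, with limma without a variance trend, and when shControl replicate 1 or shNUP153 replicate 2 was left out. That count was 2 without shControl replicate 2, and 3 with total-count or upper-quartile scaling and at a mean of 5 or 50 CPM or more. Summed over the 39 genes, the level was 5604 and 5727 CPM in shControl and 4865 and 4869 CPM in shNUP153, a ratio of 0.859, beside 0.933 for the 36 complex I genes. The counts over complexes II to V were 17 lower without shNUP153 replicate 2 and 1 with limma without a variance trend.

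**Figure D4:**
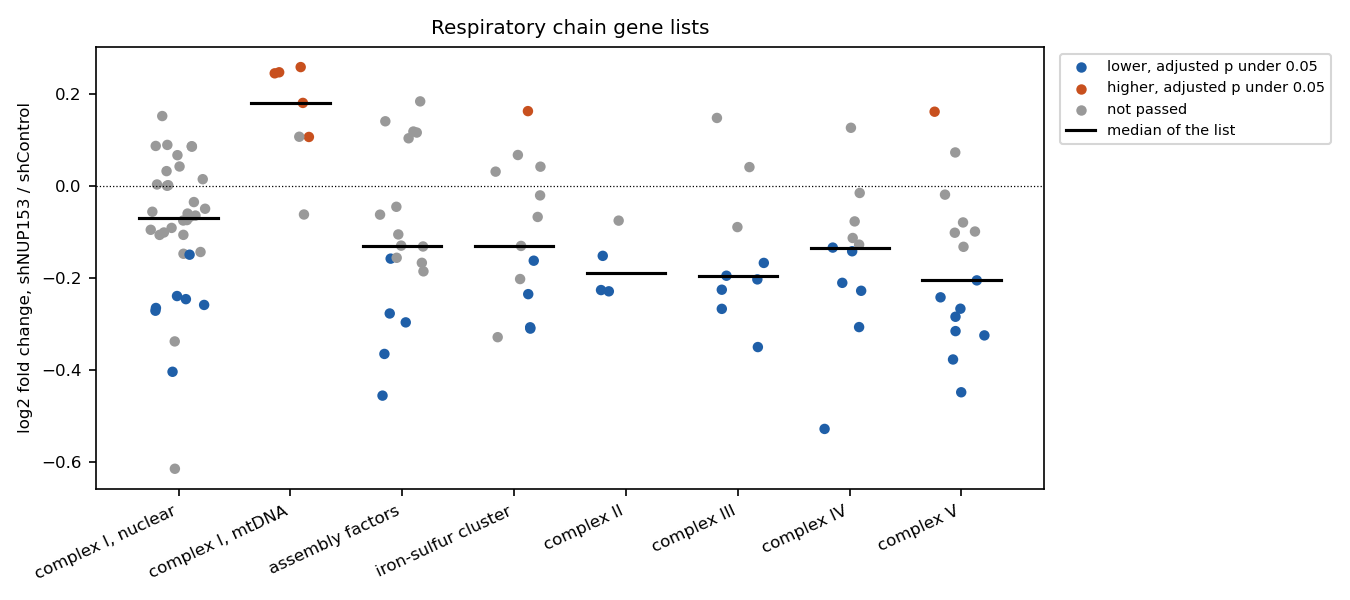
Log2 fold change (shNUP153 over shControl) of each tested gene, 1 point per gene, for nuclear complex I genes, complex I genes of mitochondrial DNA, assembly factors, iron-sulfur cluster genes and the nuclear subunits of complexes II to V. Blue and orange points passed an adjusted p under 0.05 and black bars are list medians, which lie at −0.07 for nuclear complex I, 0.18 for its mitochondrial DNA genes and −0.13 to −0.21 for the other lists.

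Of 10 tested regulators of respiratory chain genes, 1 rose (10%, beside 15% of all tested genes) and 1 fell (10%, beside 17.4%). ESRRA, the nuclear receptor ERR-alpha, rose from 161 and 178 CPM to 208 and 199 CPM (0.26, SE 0.05, edgeR adjusted p = 0.000117), and PPRC1, a coactivator related to PGC-1, fell by 0.16 (adjusted p = 0.0157). NRF1 (0.12), GABPA (0.02), YY1 (0.07) and TFAM (−0.03) did not pass. PPARGC1A had at most 2 counts in a library and was not tested.

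The promoters of complex I genes were read from RefSeq windows (GRCh38.p14), which covered 32 of the 36 genes and not NDUFB5, NDUFB9, NDUFC2 and NDUFS5, and were searched on both strands over the 250 bases before the start. A gene counted once if any of its windows held a match. The motif of NRF1, a regulator of respiratory genes, was found (as the letters in capitals for NDUFB4 below) in 5 of 32 genes (15.6%), against 8.7% of 15843 protein-coding genes with a window. The match stood in 0 of the 7 genes that fell and in 5 of the other 25, NDUFA3, NDUFA9, NDUFA11, NDUFA12 and NDUFB4. The ETS core CCGGAAG was found in 5 of 32 (15.6%, against 14%), of which NDUFA1 and NDUFS1 fell, the YY1 motif in 0 (against 0.5%), the box CCAAT in 8 (25%, against 40.2%) and the GC box GGGCGG in 21 (65.6%, against 62.1%). A match is a string in the window and not a bound site. The stretches below lie outside every GENCODE v29 exon and are shown, 5′ to 3′ on the gene's strand with matches to these 5 motifs in capitals, for NDUFA10 and NDUFAB1, which fell, and for NDUFB4 and NDUFB7, which did not pass and carry NRF1 and ETS letters.
NDUFA10 (chr2:240025403-240025592, minus strand, GC box letters): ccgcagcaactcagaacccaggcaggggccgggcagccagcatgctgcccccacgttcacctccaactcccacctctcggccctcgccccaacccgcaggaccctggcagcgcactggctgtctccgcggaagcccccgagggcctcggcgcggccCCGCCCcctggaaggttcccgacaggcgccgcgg
NDUFAB1 (chr16:23596357-23596566, minus strand, no match): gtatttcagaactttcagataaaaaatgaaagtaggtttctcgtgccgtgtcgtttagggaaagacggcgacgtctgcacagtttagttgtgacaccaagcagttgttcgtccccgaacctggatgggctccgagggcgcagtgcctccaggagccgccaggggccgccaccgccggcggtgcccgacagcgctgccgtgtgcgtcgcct
NDUFB4 (chr3:120596086-120596308, plus strand, NRF1 letters): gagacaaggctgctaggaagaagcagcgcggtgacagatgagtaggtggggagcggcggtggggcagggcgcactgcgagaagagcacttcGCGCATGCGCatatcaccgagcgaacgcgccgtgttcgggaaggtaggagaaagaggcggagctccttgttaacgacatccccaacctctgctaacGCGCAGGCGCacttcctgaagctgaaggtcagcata
NDUFB7 (chr19:14572067-14572316, minus strand, GC box and ETS letters): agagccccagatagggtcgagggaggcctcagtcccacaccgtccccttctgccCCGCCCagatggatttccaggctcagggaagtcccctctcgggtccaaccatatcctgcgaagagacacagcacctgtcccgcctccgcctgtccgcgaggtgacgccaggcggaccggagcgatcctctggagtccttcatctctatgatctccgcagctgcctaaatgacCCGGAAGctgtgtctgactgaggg
NDUFB4 held the NRF1 letters at 2 places, with levels of 68.7 and 70.3 CPM in shControl and 67.7 and 67.9 CPM in shNUP153. NDUFAB1 held none of the 5 motifs in its stretch. A link between these motifs and the changes was not tested, and the printed genes were chosen after values were seen.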

How the data were processed

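The deposited table lists counts per Ensembl gene ID, 1 column per library. Its name says FPKM, but the deposited values are whole numbers with different column sums and were treated as raw counts. The authors' deposited log2 ratio is given for 4 genes only and entered no test. It equals log2 of the unscaled group means plus 0.005, to within 4.3e-09. The submitters' processing notes name kallisto, DESeq2, Bowtie2, deepTools and hg19, without roles. Which tool counted the reads, with which annotation and strand, is not known here. All 56612 distinct gene IDs occur in GENCODE v29 (GRCh38), which supplied exon lengths and overlaps.

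Columns were matched to libraries by title. Genes were filtered with filterByExpr (minimum count 10, minimum total 15), TMM-scaled and passed to the two-sided quasi-likelihood test of edgeR 4.0.16 (R 4.3.3), with group as the only term, with Benjamini-Hochberg adjustment over all 16817 tested genes, at 0.05. Each SE is the absolute log2 fold change divided by the square root of F, and 2 residual degrees of freedom remain. Alternatives were other scalings and filters, DESeq2 1.42.0, limma 3.58.1 (voom, and log2 CPM without a variance trend), a replicate block, and leaving out each library. The procedure was also run on simulated counts with known changes. The outcome is not reported here, and no statement above rests on it. Replicates differed by more than sampling noise (chi-square per gene 3.57 in shControl and 3.09 in shNUP153, where noise gives about 1).

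The members and comparison lists were chosen with earlier results of these data known, and no set test was run. All members were named, with each library's value for called genes and for the smallest p in each arm, and up to 4 genes of each other list. Further members shown by library, further genes of the other lists, the overlaps, the promoter motifs and the printed sequences were chosen after values were seen.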

Additional observations from a re-analysis of the deposited data

How the results depend on the processing

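With 2 libraries per group the spread rests on 2 residual degrees of freedom, so calls depend on how the test shares spread between genes. Limma without a variance trend called 0 nuclear complex I genes lower, 0 of the 7 complex I genes of mitochondrial DNA higher, and 273 lower and 272 higher over all genes. Leaving out each library gave 4 to 10 complex I genes lower and 0 to 2 higher, 0 to 1 mitochondrial complex I genes lower and 2 to 6 higher, and 1769 to 2874 genes lower and 1303 to 2327 higher over all, where the remaining library of an arm is assumed to vary like the other arm. Complex I genes called higher numbered 2 with total-count scaling, 1 with upper-quartile scaling and 1 at a mean of 5 CPM or more. A mean of 50 CPM or more gave 1188 genes lower and 1209 higher, on fewer genes tested, and DESeq2 gave 1442 higher over all and 2 mitochondrial complex I genes higher. Calls over all genes were 62.8% higher with total-count and 57.6% with upper-quartile scaling, against 46.3%. The members' median stayed below 0 in all 14 alternatives, from −0.0955 to −0.0079. The replicate block called 7 complex I genes lower and 0 higher, with 2530 higher and 2935 lower over all. The deviations of same-numbered libraries had a correlation of −0.0247 over 11029 genes. With 2 libraries per group the crossed pairing gives the same value with the other sign. This check therefore cannot show if same-numbered libraries share a batch, and the labels do not say. No called nuclear complex I gene changed sign in an alternative that tested it. Signs of uncalled genes near 0 turned, and the cause was not tested. NDUFA11 was at 0.0141 with DESeq2, 0.000266 with RLE size factors, 0.0213 with limma without a variance trend, 0.0243 at 5 CPM, 0.0216 with the replicate block, 0.0634 with total-count and 0.043 with upper-quartile scaling. NDUFA2 was at −0.0381 with limma without a variance trend, −0.0328 with limma-voom, −0.00777 with no filter and −0.0222 with the replicate block, and NDUFS5 at −0.000195, −0.00102 and −0.0102 with the first 3 of these. NDUFB4 was at 0.0157 at 50 CPM, 0.0278 with total-count and 0.00757 with upper-quartile scaling, and total-count scaling also put NDUFC1 at 0.0136, NDUFB9 at 0.00268 and NDUFB5 at 0.0066. Leaving out each library turned the sign of these nuclear genes, over ranges of −0.397 to 0.297 (NDUFA2), −0.0745 to 0.148 (NDUFA3), −0.00904 to 0.0847 (NDUFA6), −0.306 to 0.0393 (NDUFA9), −0.278 to 0.29 (NDUFA11), −0.602 to 0.256 (NDUFA13), −0.207 to 0.00161 (NDUFB2), −0.225 to 0.323 (NDUFB8), −0.01996 to 0.0405 (NDUFB10), −0.112 to 0.00202 (NDUFC1), −0.00535 to 0.177 (NDUFC2), −0.06999 to 0.065 (NDUFS5) and −0.0162 to 0.19 (NDUFS6), none of them called with all libraries. It also turned MT-ND2 (−0.155 to 0.0195), MT-ND5 (−0.0275 to 0.224) and MT-ND6 (−0.00374 to 0.476), of which MT-ND6 had been called higher. NDUFV2, NDUFA7, NDUFB8 and NDUFS7, with at most 58 counts in a library, had standard errors of 0.24 to 0.45, so changes of the size called elsewhere were not detectable in them at this depth.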
